A study of Mus musculus with 66 samples.

Results

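The proteasome genes of mouse small intestinal organoids were followed through 3 cultures. Every entry of the expression table whose gene symbol starts with Psma, Psmb, Psmc, Psmd, Psme, Psmf or Psmg and goes on with a number was taken, which gave 50 transcripts of 47 gene symbols among 9481 transcripts of 8978 symbols. A count above 0 in at least 4 of the 12 RNA-seq libraries was found for 49 of the 50, and these were tested. The transcript that was not tested is the second form of Psmb2 (XM_006503117.3), which averaged 0.604 TPM (a level per length of transcript, relative to all transcripts of a library) in CV and was listed at 0 in every ENR and EN library. The rule also takes Psmc3ip, which encodes a protein of meiotic recombination named for binding Psmc3 and is no proteasome gene. It is counted with the others and described apart.

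The proteasome degrades proteins that carry ubiquitin. Its barrel, the 20S core, stacks rings of alpha subunits around rings of beta subunits, and the beta subunits Psmb5, Psmb6 and Psmb7 cut the chain. In immune signalling these are replaced by Psmb8, Psmb9 and Psmb10, and the resulting immunoproteasome makes peptides that MHC class I molecules present. The 19S cap recognises and unfolds the substrate with a base, which holds ATPases (Psmc), and a lid (Psmd). Activators (Psme) can take the place of the cap, and dedicated chaperones, among them Psmg1 to Psmg4, build the core. In the intestinal epithelium, which renews itself from crypt stem cells, MHC class I and the immunoproteasome are also made by the epithelial cells.

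All cultures came from organoids with a heterozygous Lgr5 GFP-DTR knock-in allele, a reporter at a stem cell gene. ENR, the conventional mixed culture, contains EGF, Noggin and R-Spondin. The study describes CV as enriched for stem cells. CV is ENR with 3 µM CHIR99021, an inhibitor of GSK3, and 1 mM valproic acid, an inhibitor of histone deacetylases. EN, enriched for enterocytes, is ENR from which R-Spondin-1 was withdrawn, and EN and CV cultures were not kept for the same time. The libraries analysed numbered 4 of each culture for RNA-seq and as many for ATAC-seq, 3 for each histone mark and 1 for the transcription factor Hnf4g. The labels do not say whether the libraries of a culture came from separate mice or cultures, so p-values measure the spread between these libraries, which may be technical.

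The RNA libraries held 5630951 to 8859744 expected counts, and the reference used for counting held only transcripts whose protein had been detected. Stem cell, proliferation and enterocyte markers set EN apart, but the stem cell markers as a group were not higher in CV than in ENR. All 7 stem cell marker transcripts and all 7 proliferation marker transcripts were lower in EN than in CV and ENR, and all 8 enterocyte markers were higher, at adjusted p under 0.01. Against ENR, 2 stem cell transcripts were higher in CV and 4 lower, where 30.2% and 29.8% of all transcripts were. Their sum was 302 to 337 TPM in CV and 931 to 1019 in ENR. Of the proliferation transcripts, 5 were lower in CV than in ENR. The enterocyte markers summed to 19011 to 20008 TPM in CV and 8930 to 10167 in ENR. Goblet markers (5 of 5), enteroendocrine markers (3 of 3) and tuft markers (2 of 2) were also higher in EN than in CV and than in ENR. Their median log2 changes between EN and ENR were 2.45, 1.74 and 1.32. Of 5 Paneth markers, 2 were higher and 3 lower in EN than in CV, and all 5 were lower in EN than in ENR. In such bulk RNA, a change in the share of a cell type and a change in the RNA per cell cannot be told apart.

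Promoter sequences show which letters lie in front of the genes that the results turn on, the paired constitutive and immunoproteasome subunits and the assembly chaperone with the largest fall. Psmb7, the counterpart of Psmb10, is missing because no promoter sequence was matched to it. The 250 bases before the start are given 5′ to 3′ along the gene from RefSeq on GRCm38.p6, with matches to the searched motifs in capitals. These were the antioxidant response element TGACNNNGC, which the factors Nrf1 and Nrf2 read at proteasome genes, the CCAAT box, the interferon-stimulated element (TTTC and TTTC with any 2 bases between them) and the HNF4 element CAAAGTCCA, on both strands. Psmb5 lies at chr14:54617996-54618245 on the minus strand, Psmb6 at chr11:70525107-70525356 on the plus strand, Psmb8 at chr17:34197945-34198194 on the plus strand, Psmb9 at chr17:34187331-34187580 on the minus strand, Psmb10 at chr8:105938393-105938642 on the minus strand and Psmg3 at chr5:139826895-139827144 on the minus strand.
Psmb5: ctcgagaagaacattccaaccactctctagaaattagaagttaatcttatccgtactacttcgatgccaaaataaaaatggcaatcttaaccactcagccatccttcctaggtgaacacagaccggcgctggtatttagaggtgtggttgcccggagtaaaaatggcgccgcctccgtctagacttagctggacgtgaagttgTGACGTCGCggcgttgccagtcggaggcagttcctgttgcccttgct
Psmb8: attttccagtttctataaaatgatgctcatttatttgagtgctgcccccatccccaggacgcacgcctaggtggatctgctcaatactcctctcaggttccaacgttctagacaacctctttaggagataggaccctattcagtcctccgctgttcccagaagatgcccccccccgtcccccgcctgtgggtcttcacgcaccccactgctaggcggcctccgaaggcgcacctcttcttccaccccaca
Psmb6: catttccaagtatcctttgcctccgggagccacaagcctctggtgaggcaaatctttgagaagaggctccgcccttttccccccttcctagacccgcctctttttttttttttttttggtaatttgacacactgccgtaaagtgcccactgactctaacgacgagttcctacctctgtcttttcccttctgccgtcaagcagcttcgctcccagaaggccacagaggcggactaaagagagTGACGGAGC
Psmb9: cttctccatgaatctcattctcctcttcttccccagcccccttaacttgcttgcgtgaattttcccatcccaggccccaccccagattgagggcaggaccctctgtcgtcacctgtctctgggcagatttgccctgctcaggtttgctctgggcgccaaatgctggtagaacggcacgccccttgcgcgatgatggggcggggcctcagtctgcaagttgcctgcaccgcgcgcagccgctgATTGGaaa
Psmb10: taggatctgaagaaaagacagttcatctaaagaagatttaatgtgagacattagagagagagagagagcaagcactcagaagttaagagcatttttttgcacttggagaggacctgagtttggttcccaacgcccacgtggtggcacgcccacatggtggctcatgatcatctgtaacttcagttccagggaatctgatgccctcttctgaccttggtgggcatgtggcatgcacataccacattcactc
Psmg3: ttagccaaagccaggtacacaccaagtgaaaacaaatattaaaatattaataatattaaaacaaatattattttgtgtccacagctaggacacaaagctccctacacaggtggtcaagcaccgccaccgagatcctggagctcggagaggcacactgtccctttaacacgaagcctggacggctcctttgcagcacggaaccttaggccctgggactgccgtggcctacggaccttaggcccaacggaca
The antioxidant response element stands in capitals 47 bases before the start of Psmb5 and 9 bases before that of Psmb6, and the CCAAT box of Psmb9 reads ATTGG because it lies on the other strand. Psmb8, Psmb10 and Psmg3 matched no motif in these bases.

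Promoters of 40 of the 47 symbols were matched to the RefSeq sequences, 42 in all, each from 250 bases before to 50 after the start. The antioxidant response element was found in 6 of them (14.3%), against 12.4% of all 32851 promoters. These belong to Psmb5, Psmb6, Psmc6, Psmd9, Psmd12 and Psme4. The CCAAT box was found in 14 (33.3%), against 37.4% of all, and the interferon-stimulated element in 5 (11.9%), against 3.44%. The last were Psmb3, Psmd4, Psmd9, Psme1 and Psmg4, and in Psme1 and Psmg4 the match lies 10 and 16 bases after the start, outside a window of 250 bases before it. The HNF4 element was matched in 0 of the 42, against 0.475% of all. These matches describe letters only.

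Most proteasome transcripts were lower in EN than in CV relative to the other transcripts, while the immunoproteasome and its activator were higher. In edgeR's test at an adjusted p under 0.01, 34 of the 49 fell and 5 rose, a share to be read against 41.2% of all 9288 transcripts that were lower and 35.2% that were higher (76.4% in either direction). The 5 that rose were Psmb8, Psmb9, Psmb10, Psme1 and Psme2b. Changes of at least 2-fold were called for 4 higher and 6 lower members, against 15.2% and 20.1% of all transcripts. The median log2 fold change was -0.44 over the members and -0.08 over all transcripts, and 39 of the 49 lay below the median of all.

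The direction of this median depends on the scaling of the libraries: it was -0.44 with TMM, -0.86 when libraries were scaled to the spike-ins and 0.36 on the deposited mRNA copies, where 10 members rose and 5 fell, against 43.4% and 11.5% of all transcripts. On the spike-ins 4 rose and 39 fell, against 15.9% and 46.2% of all. How the authors computed the copies is not given in the sources used here, and the copies and the spike-in scaling moved the median of all transcripts in opposite directions. The median of all transcripts was -0.49 on the spike-ins and 0.72 on the copies, so the members lay below the median of all by 0.36, 0.37 and 0.36 on the log2 scale. The copies summed to 645250 to 870829 per library in CV and to 1554680 to 2546650 in EN. The 5 members that rose with TMM also rose on the copies, and 4 of them rose on the spike-ins, where Psmb9 had a log2 fold change of 0.47 (adjusted p = 0.0636). Psmg1, Psmg2, Psmg3, Psmg4 and Psmc3ip are the 5 that fell on the copies, and all 5 fell under the other scalings as well.

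**Figure D1:**
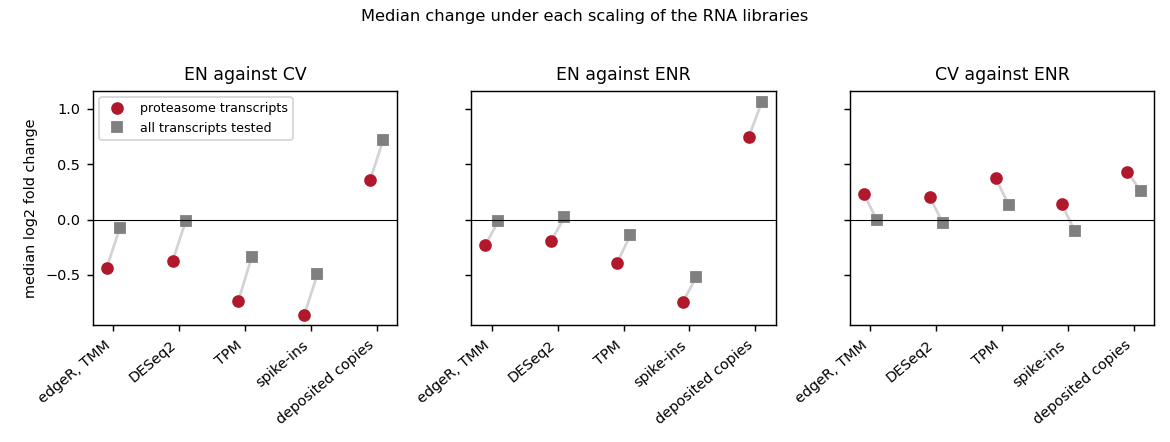
Median log2 fold change of the 49 proteasome transcripts (red circles) and of all 9288 transcripts tested (grey squares) under 5 scalings, in 3 panels by comparison. Against CV, the members of EN lie below 0 with TMM (-0.44) and above 0 on the deposited copies (0.36), and below the squares in both.

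**Figure D2:**
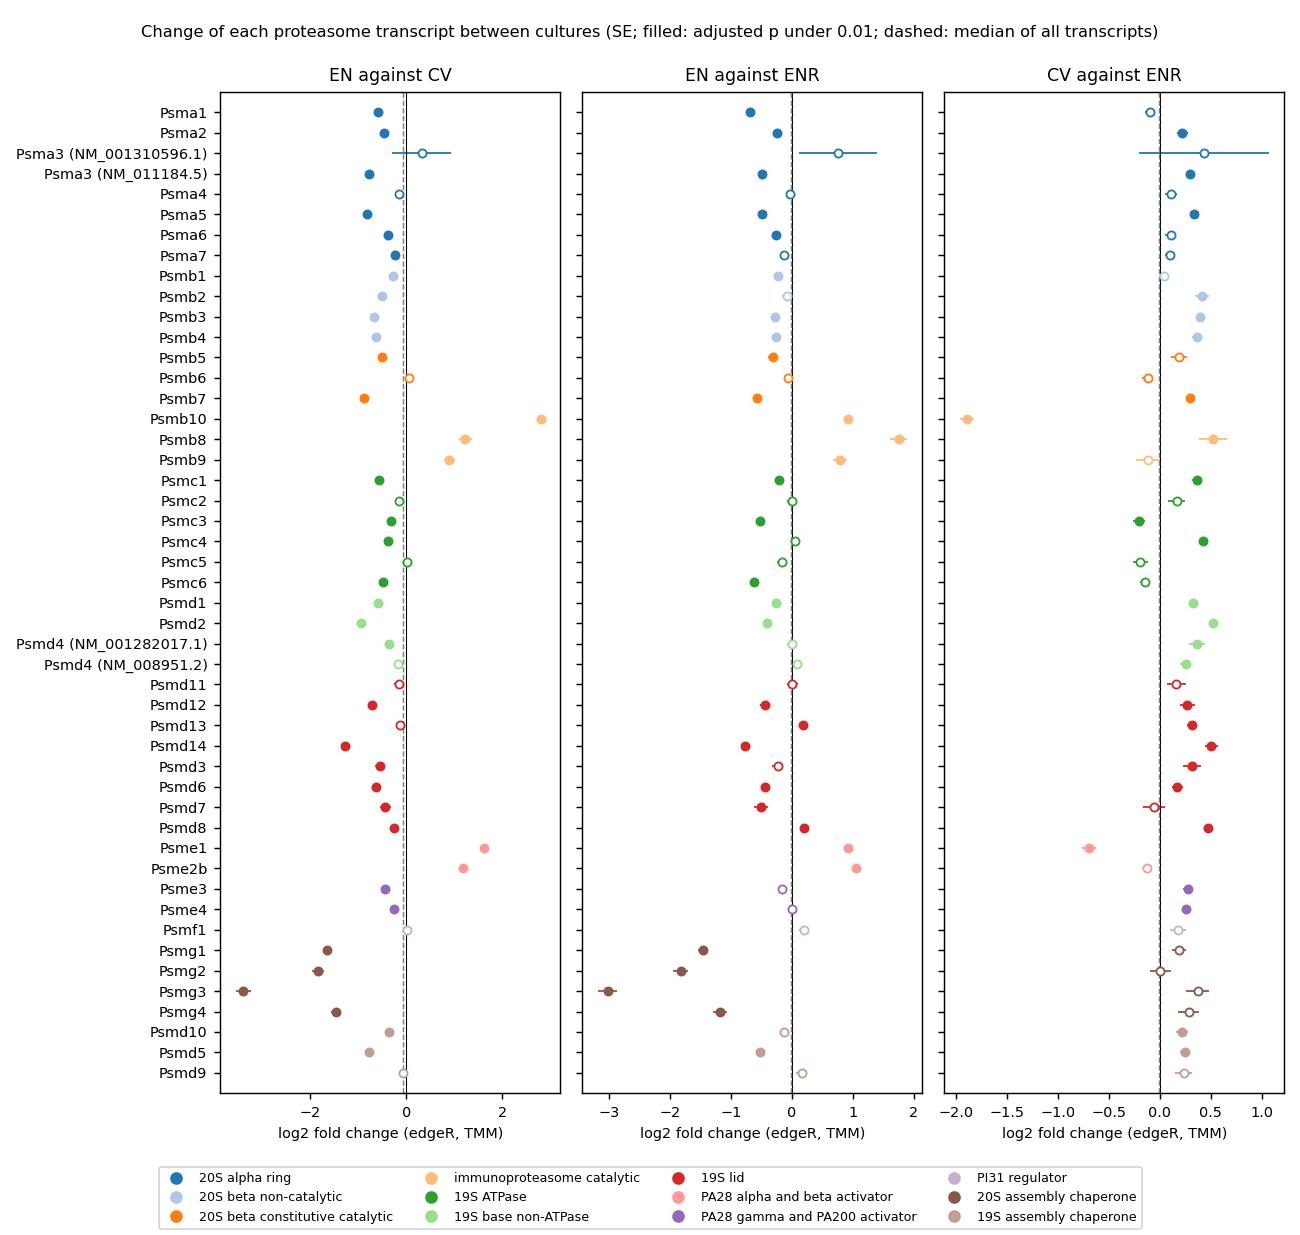
Log2 fold change (x axis, edgeR with TMM, bars: SE) of each tested proteasome transcript apart from Psmc3ip, grouped and coloured by role, in 3 panels by comparison. Filled points passed an adjusted p of 0.01 and the dashed line is the median of all transcripts. In EN against CV most points lie left of 0, which on the deposited copies turns for the median, while the immunoproteasome and PA28 alpha and beta lie right of it.

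The alpha ring closes the barrel and gates it. Of its 8 transcripts, 6 fell from CV to EN with TMM, by a log2 change of -0.58 for Psma1, -0.47 for Psma2, -0.79 for the main form of Psma3 (NM_011184.5), -0.82 for Psma5, -0.37 for Psma6 and -0.23 for Psma7, whereas none of the 8 passed on the deposited copies in either direction. Psma4 (-0.15, adjusted p = 0.0327) and the rare form of Psma3 (NM_001310596.1, 0.32, adjusted p = 0.637) did not pass in edgeR's test. The summed level of the ring was 2385 ± 67.6 TPM in CV, 1935 ± 40.1 in ENR and 1426 ± 57.0 in EN (SD, n = 4). The structural beta subunits Psmb1, Psmb2, Psmb3 and Psmb4, which hold no active site, all fell with TMM, with log2 changes of -0.27, -0.50, -0.67 and -0.63. On the copies the same 4 had a median log2 change of 0.24, and none of them passed.

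The constitutive catalytic subunits did not move together. Psmb5, which carries the chymotrypsin-like activity, stood at 239, 225, 206 and 205 TPM in CV, at 180, 172, 174 and 166 in ENR and at 144, 124, 106 and 118 in EN. The 3 cultures did not overlap on this scale, and the log2 fold change with TMM was -0.50 ± 0.0792 (SE) between EN and CV (adjusted p = 3.09e-05, edgeR) and -0.31 between EN and ENR (adjusted p = 0.00245). Psmb7, with the trypsin-like activity, stood at 354, 350, 358 and 365 TPM in CV, at 271, 256, 266 and 253 in ENR and at 158, 161, 148 and 155 in EN. The cultures were again separate, and its log2 fold change of -0.87 ± 0.0407 between EN and CV was the largest fall within the core (adjusted p = 1.57e-11, edgeR). Psmb6, with the caspase-like activity, stood at 296, 308, 286 and 275 TPM in CV, at 284, 294, 280 and 281 in ENR and at 224, 257, 232 and 260 in EN. Its EN libraries were all below those of CV on TPM, yet with TMM it changed by 0.06 ± 0.0564 (adjusted p = 0.314, edgeR), and limma on log2(TPM + 1) gave -0.26. On the deposited copies Psmb6 rose between EN and CV, while Psmb5 and Psmb7 did not pass.

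The inducible counterparts of these subunits rose from CV to EN. Psmb8 (chr17:34334666-34338399, mm9) and Psmb9 (chr17:34318933-34324709) are neighbours in the class II region of the MHC, and Psmb10 (chr8:108459628-108462292) lies elsewhere. Psmb10, which takes the place of Psmb7, stood at 24.9, 25.8, 21.2 and 23.0 TPM in CV, at 85.6, 80.8, 72.6 and 76.9 in ENR and at 133, 136, 129 and 134 in EN. The cultures were widely separate. Its log2 fold change with TMM was 2.81 ± 0.0696 between EN and CV (adjusted p = 8.48e-15, edgeR), 0.92 ± 0.0598 between EN and ENR (adjusted p = 1.06e-09) and -1.89 ± 0.0721 between CV and ENR (adjusted p = 8.13e-12). Both changes against CV had the same direction on the spike-ins and on the copies and passed there, and the change from ENR to EN missed the threshold on the spike-ins (0.40, adjusted p = 0.0404).

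Psmb8, which takes the place of Psmb5, stood at 11.99, 13.3, 12.8 and 13.7 TPM in CV, at 6.22, 9.81, 7.05 and 9.43 in ENR and at 22.9, 25.6, 23.8 and 24.8 in EN. All EN libraries lay above all others, and the log2 fold change with TMM was 1.23 ± 0.128 between EN and CV (adjusted p = 2.75e-07, edgeR) and 1.75 ± 0.135 between EN and ENR (adjusted p = 8.44e-09). Unlike Psmb10, Psmb8 was higher in CV than in ENR, by 0.52 ± 0.141 (adjusted p = 0.00424). That call was lost without CV replicate 2 or 4, without ENR replicate 1 or 3 and on the spike-ins (0.42, adjusted p = 0.176). It was also lost in DESeq2 (0.50). Psmb9, which takes the place of Psmb6, stood at 23.0, 20.2, 22.0 and 23.7 TPM in CV, at 23.6, 22.4, 21.6 and 18.96 in ENR and at 33.7, 33.7, 35.5 and 29.0 in EN. CV and ENR overlapped and EN lay above both, with a log2 fold change of 0.90 ± 0.112 against CV (adjusted p = 2.28e-06, edgeR) and 0.78 against ENR (adjusted p = 1.14e-05). Against the spike-ins Psmb9 missed the threshold in both (0.47 and 0.26).

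Within a library, the ratio of an inducible subunit to its counterpart does not depend on the scaling between libraries. The ratio of Psmb10 to Psmb7 on TPM was 0.0703, 0.0737, 0.0592 and 0.0631 in CV, 0.316, 0.316, 0.273 and 0.303 in ENR and 0.841, 0.845, 0.873 and 0.865 in EN. Psmb10 thus came close to the level of Psmb7 in EN and stayed far below it in CV. The ratio of Psmb8 to Psmb5 averaged 0.0595 ± 0.00699 in CV, 0.0473 ± 0.0114 in ENR and 0.200 ± 0.0281 in EN (SD, n = 4). The ratio of Psmb9 to Psmb6 averaged 0.0765 ± 0.00839, 0.0759 ± 0.00638 and 0.137 ± 0.0194 in the same order (SD, n = 4).

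All 3 ratios were higher in EN than in CV and ENR, in each of the 4 libraries. On the log2 scale the differences between EN and CV were 1.74, 0.83 and 3.69 for Psmb8/Psmb5, Psmb9/Psmb6 and Psmb10/Psmb7, and those between EN and ENR 2.10, 0.84 and 1.505. Each gave p = 0.0286 in a two-sided exact permutation test, the smallest p that 70 splits of 4 against 4 allow, or 0.0367 after adjustment over the 9 comparisons. Between CV and ENR, Psmb10/Psmb7 differed by -2.18 on the log2 scale, lower in CV (exact p = 0.0286). Psmb8/Psmb5 (0.36, exact p = 0.143) and Psmb9/Psmb6 (0.01, exact p = 0.886) overlapped between CV and ENR.

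**Figure D3:**
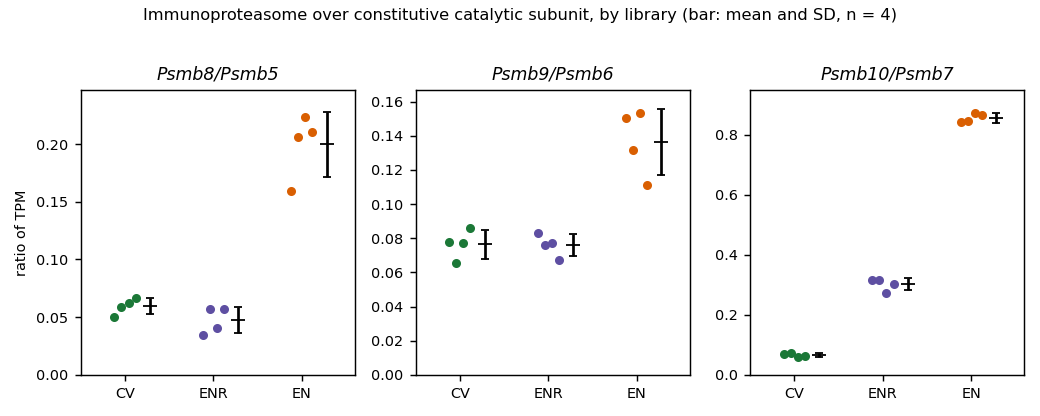
Ratio of the TPM of each inducible catalytic subunit to its constitutive counterpart (y axis, linear, no unit) in each of the 4 libraries of CV, ENR and EN, with mean and SD as bars. In all panels the EN points lie above the others, and for Psmb10/Psmb7 the ENR points (0.273 to 0.316) also lie above CV (0.0592 to 0.0737).

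The 6 ATPases of the base form the ring that unfolds substrates. With TMM, Psmc1 (-0.57), Psmc3 (-0.32), Psmc4 (-0.38) and Psmc6 (-0.48) fell from CV to EN on the log2 scale, while Psmc2 (-0.16, adjusted p = 0.0850) and Psmc5 (0.02, adjusted p = 0.790) did not pass in edgeR's test. On the deposited copies the direction turned for the group, with a median of 0.47 and a rise of Psmc5. Of the other base subunits, Psmd1 and Psmd2 are the large scaffolds. Psmd2 stood at 185, 176, 185 and 197 TPM in CV, at 116, 116, 112 and 120 in ENR and at 80.7, 77.8, 72.4 and 80.8 in EN, without overlap. Its log2 fold change with TMM was -0.93 ± 0.0412 between EN and CV (adjusted p = 7.78e-12, edgeR), and that of Psmd1 was -0.58. Psmd4, a ubiquitin receptor, was split by the counting over 2 transcripts, of which NM_001282017.1 fell (-0.37) and NM_008951.2 did not pass (-0.17, adjusted p = 0.0150).

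The lid removes ubiquitin through Psmd14, its deubiquitinase. Psmd14 stood at 262, 266, 278 and 240 TPM in CV, at 161, 176, 162 and 162 in ENR and at 78.2, 94.2, 86.1 and 87.9 in EN. The cultures did not overlap, and its log2 fold change of -1.28 ± 0.0645 between EN and CV was the largest fall of any constitutive core or cap subunit with TMM (adjusted p = 4.05e-11, edgeR). On the copies it was the lowest of the lid at -0.53 and did not pass. Psmd3 (-0.55), Psmd6 (-0.62), Psmd7 (-0.44, the partner of Psmd14), Psmd8 (-0.27) and Psmd12 (-0.72) also fell with TMM. The call of Psmd7 was lost without CV replicate 4 (-0.36, adjusted p = 0.0110, edgeR). Psmd11 (-0.15, adjusted p = 0.144) and Psmd13 (-0.12, adjusted p = 0.0194) did not pass in edgeR's test.

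Over the constitutive core and cap together, 25 of 33 transcripts of 31 symbols fell from CV to EN with TMM and 0 rose (0 at an unadjusted p under 0.05 in edgeR, and 0 in DESeq2 at the same threshold, with 1 at an unadjusted p), against 41.2% of all transcripts that were lower and 35.2% that were higher. On the deposited copies 3 rose and 0 fell (9 and 1 at an unadjusted p, limma), against 43.4% and 11.5% of all. With TMM their log2 changes ran from -1.28 to 0.32 with a median of -0.47. The subunits differ widely in level although each is present in a fixed number per complex. On TPM, Psmd7 was lowest in every culture, at 35.4 in CV, 33.1 in ENR and 20.7 in EN. Psmb4 was highest in CV (716) and Psmb1 in ENR (533) and EN (403), so the highest stood 20.2, 16.1 and 19.4 times above the lowest. The median subunit was at 218, 165 and 117 TPM.

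Psme1 and Psme2 encode the alpha and beta subunits of PA28, an activator tied to antigen processing, and both entries rose. Psme1 (chr14:56196960-56200366, mm9) stood at 134, 132, 117 and 132 TPM in CV, at 190, 166, 194 and 200 in ENR and at 312, 325, 282 and 336 in EN. The 3 cultures were separate, with a log2 fold change with TMM of 1.61 ± 0.0674 between EN and CV (adjusted p = 4.15e-12, edgeR), 0.91 ± 0.0647 between EN and ENR (adjusted p = 3.15e-09) and -0.70 ± 0.0693 between CV and ENR (adjusted p = 3.34e-07). The beta subunit was represented by Psme2b (chr11:48758856-48759692, mm9), a nearly identical copy of Psme2, which is no entry of the table, so reads of Psme2 may have been counted there. Psme2b stood at 209, 196, 204 and 211 TPM in CV, at 200, 194, 195 and 215 in ENR and at 364, 373, 366 and 380 in EN. EN lay above both others, by 1.18 ± 0.0414 against CV (adjusted p = 4.85e-13, edgeR) and 1.05 ± 0.0413 against ENR (adjusted p = 2.26e-12), and CV and ENR overlapped on TPM. Psme1 and Psme2b rose between EN and CV under all 3 scalings, and between EN and ENR Psme1 missed the threshold on the spike-ins (0.40, adjusted p = 0.0368).

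The other activators and the regulator did not rise between EN and CV with TMM. Psme3, the nuclear PA28 gamma, stood at 44.2, 47.2, 48.4 and 49.1 TPM in CV, at 33.5, 34.6, 35.8 and 36.2 in ENR and at 27.8, 27.7, 26.6 and 29.8 in EN, with a log2 fold change with TMM of -0.44 ± 0.0516 between EN and CV (adjusted p = 1.19e-06, edgeR). Psme4, or PA200, stood at 60.1, 55.9, 59.8 and 57.7 TPM in CV, at 44.1, 41.8, 44.7 and 44.1 in ENR and at 38.0, 37.4, 42.0 and 39.8 in EN, and changed by -0.25 ± 0.0445 (adjusted p = 7.75e-05, edgeR). For both, CV was separate from the others, and on the deposited copies both were above 0 between EN and CV (0.35 and 0.55) without passing. Psmf1 encodes PI31, an inhibitor of the core in vitro. It stood at 10.0, 10.7, 10.0 and 10.9 TPM in CV, at 8.26, 8.15, 7.78 and 8.71 in ENR and at 9.07, 7.92, 7.74 and 9.01 in EN. With TMM it changed by 0.02 between EN and CV (adjusted p = 0.815, edgeR) and by 0.20 between EN and ENR (adjusted p = 0.0318), and on the copies it rose in both.

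The chaperones that build the alpha ring had the lowest median change of all roles, at -1.74 on the log2 scale between EN and CV with TMM and -1.09 on the deposited copies. Psmg1 and Psmg2 work as a pair, and so do Psmg3 and Psmg4. Psmg3 (chr5:140299548-140302797, mm9) stood at 58.6, 51.4, 52.7 and 46.7 TPM in CV, at 35.1, 38.4, 39.97 and 32.5 in ENR and at 2.59, 4.31, 4.31 and 4.81 in EN. No library overlapped between EN and the others, and the log2 fold change with TMM was -3.39 ± 0.158 against CV (adjusted p = 1.49e-11, edgeR) and -3.02 ± 0.162 against ENR (adjusted p = 9.72e-11). Summed over libraries, 56 counts in EN stood against 739 in CV. On the deposited copies Psmg3 ran from 23.0 to 44.1 in CV and from 2.81 to 5.03 in EN, again without overlap.

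Psmg2 stood at 49.6, 60.0, 55.2 and 50.9 TPM in CV, at 52.0, 49.5, 41.7 and 49.5 in ENR and at 11.3, 9.29, 14.3 and 13.2 in EN. CV and ENR overlapped, and EN was lower by a log2 change of -1.83 ± 0.120 against CV (adjusted p = 9.91e-10, edgeR) and -1.83 against ENR (adjusted p = 1.25e-09). Psmg1, its partner, stood at 83.2, 86.9, 84.4 and 98 TPM in CV, at 69.3, 70.4, 65.1 and 73.0 in ENR and at 21.4, 24.8, 19.5 and 24.6 in EN. Its log2 fold changes against CV and ENR were -1.64 ± 0.0831 (adjusted p = 4.17e-11, edgeR) and -1.45 (adjusted p = 2.62e-10). Psmg4 stood at 64.8, 63.6, 61.5 and 65.04 TPM in CV, at 45.7, 44.0, 46.7 and 52.1 in ENR and at 16.3, 20.0, 19.9 and 17.5 in EN. It changed by -1.46 ± 0.111 against CV (adjusted p = 6.54e-09, edgeR) and by -1.18 against ENR (adjusted p = 1.24e-07).

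The summed level of these 4 chaperones was 258 ± 3.77 TPM in CV, 201 ± 5.71 in ENR and 57.0 ± 3.74 in EN (SD, n = 4). All 4 fell from CV to EN with TMM, on the spike-ins and on the copies, where the sum was 160 ± 25.2 in CV and 69.4 ± 3.05 in EN. Between EN and ENR, Psmg2 and Psmg3 fell on the copies and Psmg1 (-0.58, adjusted p = 0.0176, limma) and Psmg4 (-0.27, adjusted p = 0.250) did not pass. No Psmg transcript passed between CV and ENR with TMM, with log2 changes of 0.19, 0.00, 0.37 and 0.28 for Psmg1 to Psmg4 and an adjusted p of 0.0102 for Psmg3. The chaperones of the 19S base moved less: Psmd5 (-0.77) and Psmd10 (-0.35) fell from CV to EN with TMM, Psmd9 (-0.07, adjusted p = 0.437, edgeR) did not pass, and on the copies their median was 0.44.

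**Figure D4:**
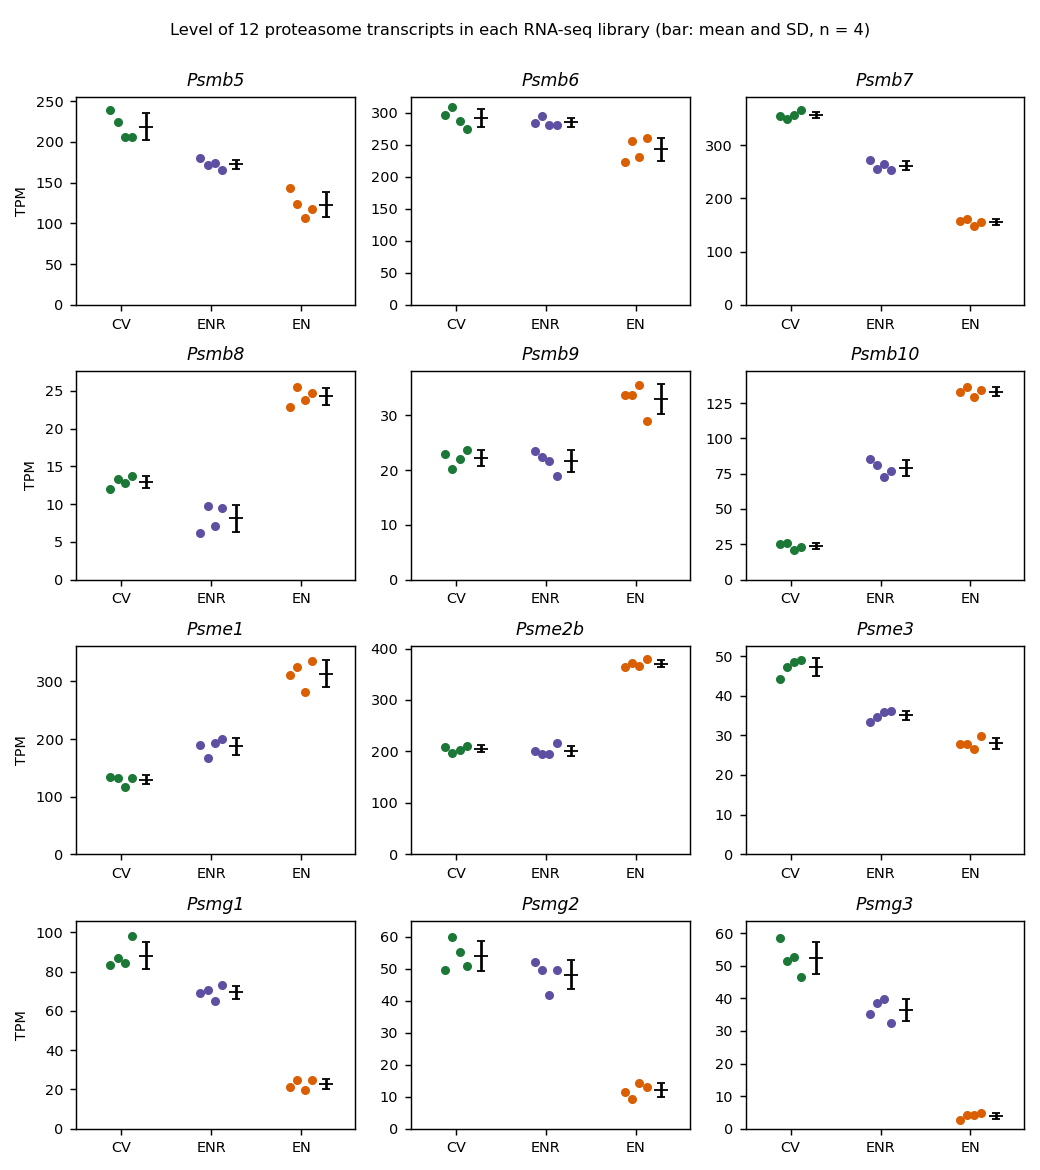
Level in TPM (y axis, from 0) of 12 proteasome transcripts in each of the 4 RNA-seq libraries of CV, ENR and EN (points), with mean and SD as bars. Psmb8, Psmb9, Psmb10, Psme1 and Psme2b are highest in EN and Psmg1, Psmg2 and Psmg3 lowest, whereas the lower Psmb6 in EN was seen on TPM and not with TMM (0.06).

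Psmc3ip, the meiotic recombination gene that shares the name of the family, was counted 3, 1, 2 and 3 times in the EN libraries, against 17, 16, 35 and 38 in CV and 39, 29, 37 and 35 in ENR. EN was at or below the floor of 3 counts in every library. Relative to library size, the summed counts of 9 and 106 give a ratio of EN to CV of 0.106 (95% exact interval 0.0471 to 0.209), and those of 9 and 140 a ratio of EN to ENR of 0.0741 (0.0332 to 0.145). Both intervals cover counting error only.

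Between EN and ENR, 25 members fell and 7 rose, against 37.2% and 35.5% of all transcripts, and the median log2 change was -0.23 with TMM (-0.01 over all), -0.74 on the spike-ins and 0.74 on the copies. On the spike-ins 2 rose and 35 fell, against 11.8% and 46% of all, and on the copies 22 rose and 3 fell, against 55.4% and 7.78%. Psmd8 (0.20, adjusted p = 9.43e-05, edgeR) and Psmd13 (0.19, adjusted p = 0.00157) of the lid rose in addition to the 5 transcripts named above. Neither rose on the spike-ins, and neither passed as higher in limma on log2(TPM + 1). The largest falls outside the chaperones and Psmc3ip were those of Psmd14 (-0.77), Psma1 (-0.68) and Psmc6 (-0.62). At least 2-fold changes were called for 2 higher members, Psmb8 and Psme2b, and 5 lower members, against 13.1% and 17% of all transcripts.

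Between CV and ENR, 24 members were higher in CV and 3 lower, against 30.2% and 29.8% of all transcripts, and the median log2 change was 0.23 with TMM against -0.01 over all. On the spike-ins the median was 0.14 and 0 members passed as higher (3 at an unadjusted p under 0.05, edgeR) and 2 as lower, against 11.2% and 17.2% of all. On the copies the median was 0.43, and Psmb8 passed as higher and Psmb10 as lower, against 11.2% and 3.7% of all. The largest rises with TMM were Psmd2 (0.52 ± 0.0400, adjusted p = 1.94e-08), Psmb8 and Psmd14 (0.51 ± 0.0606, adjusted p = 2.68e-06). The 3 that fell were Psmb10, Psme1 and Psmc3, and of these Psmb10 alone passed the 2-fold rule, against 6.17% of all transcripts that did so downward and 6.74% upward, where no member did. Psmc3 stood at 177, 172, 173 and 173 TPM in CV, at 179, 185, 177 and 177 in ENR and at 116, 126, 93.3 and 110 in EN. Its fall of -0.20 ± 0.0622 between CV and ENR (adjusted p = 0.00897, edgeR) was close to the threshold and was lost on TPM (-0.05) and when any CV or ENR library or EN replicate 1 or 4 was left out (adjusted p 0.0112 to 0.0255). Of the 24 that were higher, Psmb8, Psmd3, Psmd6, Psmd10 and Psmd12 lost their calls without 1 library or another, and the count ran from 20 to 25.

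The whole family took 0.884% of TPM in CV, 0.708% in ENR and 0.572% in EN. On TPM this is 8642 ± 85.7, 6948 ± 42.7 and 5579 ± 151 (SD, n = 4). The inducible catalytic subunits summed to 58.9 ± 2.00, 109 ± 6.61 and 190 ± 3.41 TPM in the same order, and PA28 alpha and beta to 334 ± 11.3, 389 ± 22.7 and 684 ± 29.4. The constitutive catalytic subunits summed to 867 ± 22.2, 719 ± 14.4 and 522 ± 24.7 TPM, and the lid to 1060 ± 23.7, 756 ± 16.4 and 576 ± 19.5.

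Other genes of these pathways were taken from fixed lists. Of 26 transcripts of proteasome partners, 8 rose and 6 fell from CV to EN with TMM, with a median log2 change of 0.06, against 35.2% and 41.2% of all transcripts. On the spike-ins 2 rose and 7 fell, against 15.9% and 46.2% of all, with a median of -0.37. On the copies 13 rose, against 43.4% of all. Usp14, the deubiquitinase that binds the cap, fell (-1.37, adjusted p = 1.56e-11), as did the cap-bound Txnl1 (-0.63, adjusted p = 1.14e-08). Zfand5, an activator of the proteasome, rose (0.97, adjusted p = 2.26e-11), and so did Ddi2, the protease that activates Nrf1 (0.84, adjusted p = 5.36e-11). Pomp, which completes the core after the alpha ring is built, changed by 0.13 (adjusted p = 0.0354), unlike the Psmg chaperones, and rose between EN and ENR (0.37, adjusted p = 1.01e-05).

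Of 15 transcripts of interferon signalling and antigen presentation, 10 rose and 1 fell from CV to EN with TMM, and 14 rose between EN and ENR, where 35.2% and 35.5% of all transcripts were higher. On log2(TPM + 1) 8 rose and 3 fell between EN and CV, against 2263 and 4976 of all 9288 transcripts. The summed level of the list overlapped between CV (2582 to 2797 TPM) and EN (2640.5 to 2777) and was 1213 to 1244 in ENR. On the spike-ins 6 rose and 2 fell between EN and CV, against 15.9% and 46.2% of all. Between EN and ENR 5 rose on the spike-ins, against 11.8% of all. Irf1, a factor that activates interferon-responsive genes, rose by 1.78 (adjusted p = 2.48e-13) and B2m, the light chain of MHC class I, by 1.17 (adjusted p = 5.86e-12) between EN and CV. Tapbpl rose by 1.93 and Tapbp by 1.29, both editors of the peptides loaded on MHC class I. Tap1, the peptide transporter that shares a start region with Psmb9, changed by -0.12 (adjusted p = 0.170), and the heavy chain H2-D1 fell (-0.57, adjusted p = 1.92e-05). Between CV and ENR 8 of the 15 were higher in CV and 4 lower, against 30.2% and 29.8% of all transcripts. H2-D1 was higher in CV by 1.51 (adjusted p = 1.20e-09, edgeR), where Psmb10 was lower. Immune cell markers, whose cells express these genes strongly, summed to 0.755 to 2.12 TPM per library over 4 transcripts, with overlapping ranges of 0.832 to 1.40 in CV, 0.755 to 2.12 in ENR and 0.853 to 1.97 in EN. Of the 2 that could be tested, Ptprc, which marks white blood cells, rose from 0.0103 TPM in CV and 0.326 in ENR to 0.667 in EN (log2 change to CV 5.74, adjusted p = 2.16e-07, edgeR), and Cd74 did not pass (-1.06, adjusted p = 0.125). The part of such cells in these results was not tested.

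The COP9 signalosome, whose subunits are related to those of the lid, and the TRiC chaperonin, a folding machine, are other constitutive complexes. From CV to EN with TMM, 8 of 10 COP9 transcripts fell, with a median log2 change of -0.45, and 8 of 9 TRiC transcripts fell, with a median of -1.27, against 41.2% of all transcripts. The remaining members of each list did not pass. Between EN and CV on the copies, no transcript of either list passed in limma, against 43.4% of all that were higher and 11.5% lower. At an unadjusted p under 0.05 in limma, 1 COP9 transcript was higher and 1 lower, and 3 TRiC transcripts were lower. The median of the constitutive core and cap, -0.47, was close to that of COP9, a description without a test.

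Chromatin at the start sites was compared in the 51 regions of the union of peaks that lie within 500 bp of a start of 45 of the 47 symbols on mm9. The others are Psma2 and Psme2b. Of the 51, 13 also lie near the start of another gene. In limma's test across the 3 cultures at an adjusted p under 0.05, the ATAC score, a normalised measure of open chromatin, changed at 15 of the 51, against 39.7% of 94166 regions. In 7 of these EN lay above CV and in 8 below, but after quantile normalisation the split was 4 above and 14 below. The median log2 difference between EN and CV was -0.01 over the members and 0.05 over all regions. The adjusted p of a region, for ATAC and the histone marks, tests the 3 cultures together and not EN against CV alone.

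At several of these genes accessibility and mRNA differed in direction, or only 1 of them changed. The region of Psmb10 (chr8:108460733-108462256) lies inside the gene, 36 bases from its start. The ATAC score there was 33, 39, 33 and 45 in CV, 39, 36, 30 and 32 in ENR and 22, 26, 17 and 26 in EN. EN lay below both others (log2 difference -0.70 to CV, adjusted p = 0.00630, limma), where the mRNA of Psmb10 was highest. At Psmb6 (chr11:70338164-70339694) the score was 36, 33, 46 and 47 in CV, 27, 36, 33 and 34 in ENR and 15, 19, 19 and 28 in EN, a log2 difference of -0.98 between EN and CV (adjusted p = 0.00129, limma), and the mRNA changed by 0.06 with TMM. At Psmb8 (chr17:34334472-34335647) it was 17, 25, 27 and 22 in CV, 20, 22, 13 and 22 in ENR and 22, 24, 17 and 26 in EN, with all cultures overlapping (adjusted p = 0.579, limma).

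The chaperones also differed from each other in this measure. At Psmg3 the ATAC scores of the cultures overlapped, from 12 to 14 in CV, 11 to 19 in ENR and 8 to 20 in EN (adjusted p = 0.565, limma). At Psmg4 (chr13:34254629-34255767) the score was 71, 67, 67 and 77 in CV, 52, 45, 51 and 60 in ENR and 52, 48, 40 and 55 in EN (adjusted p = 0.00795, limma), so it was higher in CV than in both others. At Psmg2, whose region is shared with Cep76, it was 44, 46, 37 and 35 in CV, 62, 61, 61 and 50 in ENR and 55, 96, 50 and 70 in EN (adjusted p = 0.00983, limma), lowest in CV. The other regions that passed with EN above CV were those of Psma3 (0.69), Psma4 (0.48), Psmc4 (0.62), Psmd8 (0.35), Psme4 (0.61) and Psmf1 (0.34), and those with EN below CV were Psmc5 (-0.38), Psme3 (-0.77), Psma7 (-0.11), Psmd7 (-0.04) and Psmd9 (-0.16), of which the last 3 differed mainly from ENR.

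**Figure D5:**
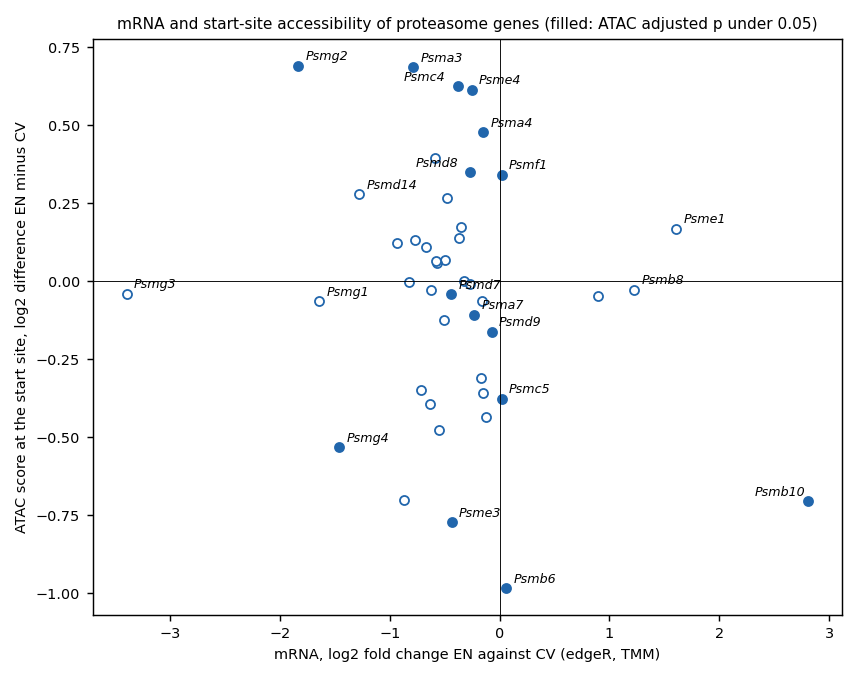
Log2 fold change of mRNA between EN and CV (x axis, edgeR with TMM) against the log2 difference of the ATAC score at the start site between EN and CV (y axis) for the 44 proteasome genes with both values, each at its most abundant transcript and its longest region. Filled points passed limma's test over the 3 cultures. Psmb10 lies at 2.81 and -0.70 and Psmg2 at -1.83 and 0.69, so points with opposite signs are among those with large values on both axes.

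Histone marks passed at few of these starts. On simulated data with only 200 regions changed, 2-fold, the tests recovered 1% of these for H3K27ac, 14.5% for H3K4me3 and 0% for H3K27me3. In the data 6268, 4962 and 930 regions passed in the same order. The adjustment is stricter where fewer regions change, so these rates do not measure how much was missed here. A start that did not pass may still have changed. H3K27ac, a mark of active promoters and enhancers, changed at 4 of 51 regions, against 6.65% of all regions, and all 4 were higher in EN than in CV. At Psmb6 its score was 60, 21 and 40 in CV, 51, 46 and 44 in ENR and 117, 78 and 126 in EN (log2 difference 1.48, adjusted p = 0.0130, limma), the opposite of the ATAC score there. At the start shared by Psmb9 and Tap1 it was 30, 36 and 71 in CV, 81, 54 and 84 in ENR and 97, 109 and 110 in EN (1.29, adjusted p = 0.0266, limma). The others were Psma3 (0.79) and Psma7 (0.78). Without EN replicate 2 or 3 0 of the 51 passed, without EN replicate 4 1, and without CV replicate 4 or ENR replicate 4 2. Of all regions, 2.68%, 2.69% and 2.41% passed without EN replicate 2, 3 and 4. Without CV replicate 4 and ENR replicate 4 the shares were 5.45% and 4.06%.

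H3K4me3, a mark of active starts, changed at 1 of 50 regions, that of Psmb3 (0.69, adjusted p = 0.0435, limma), against 6.38% of all, and the call was lost in 7 of the 9 fits that left out a library (it stayed without CV replicate 3 or EN replicate 1). H3K27me3, a mark of repression, changed at 0 of 51, against 0.984% of all, in limma's test (1 at an unadjusted p under 0.05). At Psmb10 the H3K27ac score was 57, 36 and 48 in CV, 91, 72 and 82 in ENR and 84, 111 and 83 in EN. CV lay below both others, and the change did not pass (adjusted p = 0.0607, limma).

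Reads of Hnf4g, a factor of enterocytes, were counted in 1 library per culture, so no difference between cultures could be tested. The 51 start regions held 73 of 84340 reads in regions in CV (0.0866%, exact 95% interval 0.0678 to 0.109), 227 of 352600 in ENR (0.0644%, 0.0563 to 0.0733) and 2150 of 1816497 in EN (0.118%, 0.113 to 0.123). They make up 0.185% of the length of all regions, so they held fewer reads per length than the average region in every library. By number they are 0.0540% of the regions, with a median length of 1444 bp against 220 bp for all, and their median was 33 reads in EN against 4 over all regions. The regions without a read numbered 25 in CV, 13 in ENR and 1 in EN, in the order of the libraries' reads. The intervals cover counting error only.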

How the data were processed

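RNA-seq, ATAC-seq and ChIPmentation libraries of the 3 cultures were grouped by their labels. The members and gene lists were chosen with earlier results of these data known. The RNA table that the authors deposited holds expected counts of each transcript from kallisto (0.43.0 in the submitters' processing notes), TPM, and other values, mRNA copy numbers. Spike-ins had been added in a fixed amount to a fixed mass of RNA, and how the copies were computed from them is not given in the sources used here. The normalised scores the authors deposited for open chromatin and histone marks cover each region of the union of MACS2 peaks on mm9, and the Hnf4g columns they deposited hold raw counts. Libraries of these marks without a column of values were not analysed here.

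Expected counts were rounded, and edgeR 4.0.16 (quasi-likelihood test, TMM, common dispersion 0.00475, Benjamini-Hochberg adjustment) was fitted to all 12 libraries and 9288 transcripts in R 4.3.3. The copies and log2(TPM + 1) were tested with limma 3.58.1. Scores were tested as log2(score + 1) with limma's moderated F test. Levels are given as TPM, changes as log2 fold changes with TMM, and overlap of cultures is judged on TPM unless stated. Ratios were tested with exact permutation tests in scipy 1.17.1. Every member was named, and values per library are given for the catalytic subunits, Psme, Psmf1 and Psmg genes and, per comparison, the 3 largest rises and falls. Start sites came from the GENCODE annotation of mm9, and promoter sequences from RefSeq on GRCm38.p6, which were not overlaid on the mm9 regions. On simulated data the RNA test recovered 93.5% of 200 transcripts changed 1.5-fold, among 9239. The tests of scores recovered 73% of 200 regions changed 2-fold for ATAC, 1% for H3K27ac, 14.5% for H3K4me3 and 0% for H3K27me3. More than 200 transcripts or regions passed in each of these tests of the data, so recovery there may differ. Alternatives covered the scaling, the filter, the pseudocount, the threshold, DESeq2 1.42.0, the replicate block and each library left out. The alternatives of the 2-fold counts and the scalings per role were chosen after seeing the data.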

Additional observations from a re-analysis of the deposited data

Results flagged for a closer look

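In 156 groups of 4 libraries (49 transcripts and 3 ratios in 3 cultures), 7 had a library whose gap to the others exceeded Dixon's critical value of 0.829, and chance flags about 1 in 20 groups. ENR replicate 2 was highest for 3 members, Psma2 with 191.8 CPM (others 187.0 to 187.7), Psma6 with 140.4 CPM (others 123.5 to 125.4) and Psmd14 with 171.6 CPM (others 157.3 to 157.9). EN replicate 2 was highest for the lid subunits Psmd6, with 104.7 CPM (others 90.8 to 92.4), and Psmd13, with 135.7 CPM (others 122.2 to 122.9). CV replicate 1 was lowest for Psmd1, with 214.4 CPM (others 223.9 to 225.4), and for Psmd11, with 37.7 CPM (others 48.6 to 49.9). Without EN replicate 2, Psmd13 passed as lower in EN than in CV (-0.16, adjusted p = 0.00357, edgeR). Without CV replicate 1, Psmd11 changed by -0.24 between EN and CV (adjusted p = 0.0116, edgeR), in place of -0.15.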

How the results depend on the processing

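Scaling moved the results most. On the deposited copies the median log2 change of the members turned to 0.36 (EN against CV) and 0.74 (EN against ENR) and was 0.43 (CV against ENR), and on the spike-ins it was -0.86, -0.74 and 0.14. In the same order it was -0.74, -0.39 and 0.37 on log2(TPM + 1), -0.68, -0.37 and 0.33 on log2(TPM + 5), -0.37, -0.20 and 0.20 with RLE and -0.37, -0.20 and 0.21 with DESeq2. With only the cultures compared it was -0.38 for EN against CV. Counts on the copies were 10 higher and 5 lower (EN against CV), 22 and 3 (EN against ENR) and 1 and 1 (CV against ENR). There 17 members changed 2-fold between EN and ENR, where 4553 of all 9288 transcripts did so upward and 654 downward. Of the members called with TMM, 23 of 39, 20 of 32 and 0 of 27 had the other sign on the copies, and 1 of them was called there. On the spike-ins 2 were higher between EN and ENR and 0 between CV and ENR, against 11.8% and 11.2% of all. Members changed 2-fold there numbered 19 (EN against CV) and 14 (EN against ENR). Of all 9288 transcripts, 895 rose and 2897 fell 2-fold in the first comparison and 627 and 2775 in the second. Members lower in CV than in ENR numbered 6 at an adjusted p under 0.05 and 5 with RLE, DESeq2 or transcripts summed per gene. On log2(TPM + 1) and log2(TPM + 5), Psmf1 (-0.27 and -0.20), Psmb6 (-0.26 and -0.26) and Psmc5 (-0.30 and -0.29) turned between EN and CV, and Psme4 (-0.15 and -0.14) between EN and ENR. The cause was not tested.

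Of 3075 values of single members under the remaining alternatives, 2942 kept their side of the threshold, 43 lost a call and 82 gained one. The other 8 changed sign with a call in at least 1 of the fits compared. A sign change of a value called in neither fit was counted among the 2942. The ratios kept their direction wherever they had passed, on counts and copies too. With a library left out, the median ran from -0.45 to -0.41 (EN against CV) and from -0.23 to -0.21 (EN against ENR), and calls from 12 to 15 for ATAC, 0 to 4 for H3K27ac and 0 to 1 for H3K4me3. At the thresholds of the study ATAC, H3K27ac and H3K4me3 gave 0 regions, against 3.82%, 1.22% and 0% of all regions. Without a trend, H3K27ac and H3K4me3 gave 0, against 3 of all 94215 regions and 6.05% of all. The 0 for H3K27ac is thus not particular to these starts. Quantile normalisation gave 1 for H3K27ac, against 3.64% of all, and a distance of 1000 bp gave 2 for H3K4me3, against 6.38%.

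Same-numbered libraries were not treated as paired, since the labels tie them to no shared source and not every pair's deviations correlated above 0.1: r ran from -0.0801 to 0.111 for RNA and from 0.0695 to 0.460 for ATAC, where 8 of 12 pairs were above it, and 4 and 7 of 12 libraries were closest to their own number. With the replicate block, 5 members were higher and 34 lower (EN against CV), 7 and 27 (EN against ENR) and 24 and 3 (CV against ENR). With the block 20 regions changed in ATAC, against 43.0% of all. H3K27ac and H3K4me3 gave 0, against 0% and 3.24% of all. The alternative with further columns of each mark was not run. Depth limits Psmc3ip, at 1 to 3 counts in EN, and each histone mark had 3 libraries with values per culture.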
